A study of Arabidopsis thaliana with 64 samples.

Results

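The warmth response of Arabidopsis thaliana seedlings that carry both ELF3 and ELF4 was examined in 7 RNA libraries, out of 38 RNA libraries and 64 samples in all. The members are all 27 °C and 22 °C libraries of 3 genotypes. At 27 °C there were 2 libraries of Col-0, the wild-type accession, and 1 each of ELF3-ox and ELF4-ox, lines named for overexpression of ELF3 or of ELF4. At 22 °C there was 1 library of each of these genotypes. The 12 °C library of ELF3-ox was left out. The labels give Col-0 as the cultivar of all of these plants, and the sources used here do not give the promoter or the number of lines behind each overexpressor. Pooled seedlings were sampled after 10 days under a cycle with 8 h light and 16 h darkness. The comparison set, used for 1 test, was 8 libraries, 1 at 27 °C and 1 at 22 °C for elf3-1, elf3-1 X ELF4-ox, elf4-2 and elf4-2 X ELF3-ox; every one of these lines carries a mutant allele of ELF3 or ELF4.

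ELF3, ELF4 and LUX form the evening complex, a repressor of transcription that accumulates around dusk and in the early night. LUX is its DNA-binding subunit, ELF3 is the scaffold, and ELF4 stabilises the assembly. The complex restrains clock genes such as PRR9, PRR7 and GI and the growth-promoting bHLH factor PIF4, and its repression weakens in warm conditions. In seedlings, warmth releases PIF4 and the auxin-driven elongation that follows from it, and, in this species, elongation, early flowering and other acclimation steps together are called thermomorphogenesis.

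Each read of the 3' end sequencing used here marks the end of 1 transcript, and levels are given as CPM, read counts scaled to a common library size with TMM factors. Between 5801245 and 22010195 reads fell on genes per library. The 17934 loci that reached 1 CPM in 3 or more of the 7 libraries were tested with edgeR's quasi-likelihood test, with a genotype term and a Benjamini-Hochberg adjusted p under 0.05 as the threshold. Changes are fitted log2 values, 27 °C minus 22 °C, with their standard error (SE). The labels mark these samples as single and do not say whether Col-0 replicates 1 and 2 at 27 °C are separate cultures, so p-values measure only the spread between these libraries. No source used here gives the hour of harvest for RNA, so a difference in level cannot be told apart from a shift in the daily phase of a rhythmic gene. Because whole seedlings were sampled, fewer cells of a type and less RNA per cell cannot be told apart either.

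The library of Col-0 27 °C replicate 2 stood apart in several ways. The number that opens its title, 184, is shared with none of the other 6 libraries, whose titles open with 177, 178 or 181. In this it was not alone, since ELF4-ox at 22 °C was the only library with 178. It held 215 reads of the seed storage gene CRU3, against 1 to 23 in each of the other 6. The other seed storage genes under the filter did not share this: CRU2, SESA1, SESA2, SESA3 and SESA4 had 0 or 1 reads in it, and their highest counts, 22, 13, 46, 68 and 17 reads, were all in ELF3-ox at 22 °C. The summed level of the 3 seed storage and oil body markers that passed the filter (CRA1, OLEO1 and OLEO2, of 9 markers) was 25.4 CPM in it. That sum was 12.4 CPM in Col-0 replicate 1, 8.60 in ELF3-ox and 10.5 in ELF4-ox at 27 °C, against 3.12 CPM in Col-0, 12.5 in ELF3-ox and 2.02 in ELF4-ox at 22 °C. Root markers summed to 189 to 281 CPM at 27 °C and 223 to 275 CPM at 22 °C, and 11 of 13 were tested. Leaf markers, with 8 of 9 tested, summed to 630.5 CPM in Col-0 27 °C replicate 2. The other warm libraries had 309 to 391 CPM, and the 22 °C libraries 353 to 364 CPM. None of the root, leaf or seed markers passed the test, where 0.296% of all tested loci did.

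At 27 °C, 53 of the 17934 loci (0.296%) differed from 22 °C, 32 higher (0.178%) and 21 lower (0.117%). The higher genes included the floral homeotic gene PI, the auxin signalling repressor IAA34 and the heat coactivator MBF1C. They also included the phosphate-related genes SRG3, PAP17, SPX1 and G3Pp1, and the dehydration genes TSPO, RAB18 and GolS1. The lower genes were led by LHCB1.1, an antenna protein of photosystem II, and included the floral integrator SOC1, the defensin PDF2.1 and the cold dehydrin LTI30. All 53 moved the same way in all 3 genotypes and in both Col-0 libraries at 27 °C, and their fitted changes were at least 1.26 on the log2 scale. The calls were made from these same libraries, so a shared direction or separate groups among the called genes is no further support. In 51 of the 53, 30 higher and 21 lower, the 27 °C libraries did not overlap with the 22 °C libraries; over all tested loci, 8.01% had every 27 °C library above every 22 °C library and 7.64% had every one below. The exceptions were EXPA2, a cell wall expansin, and AT1G04660, where a 27 °C library of one genotype fell under a 22 °C library of another. At an unadjusted p under 0.05, 1288 loci were higher (7.18%) and 1303 lower (7.27%), and with DESeq2 430 loci passed, 242 higher and 188 lower, among them all 53.

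The count of calls depended on which libraries entered. It was 277 without Col-0 27 °C replicate 2, again with all 53 among them. Only 1 gene, AT5G35660, passed without Col-0 27 °C replicate 1. Without ELF3-ox at 27 °C and at 22 °C, 14 and 15 genes passed. No gene passed without ELF4-ox at 27 °C, without ELF4-ox at 22 °C or without Col-0 at 22 °C, where 1358, 1356 and 1744 loci had an unadjusted p under 0.05. With the genotype term, leaving out 1 library of an overexpressor leaves its partner without a comparison. Both fits of that genotype therefore drop it from the response, and leaving out Col-0 at 22 °C drops Col-0. All 53 kept their direction in every alternative in which they were tested, but those alternatives reuse the libraries that the calls were made from. Only the pairs Col-0 replicate 1 and ELF3-ox have title numbers in common between 27 °C and 22 °C, and in those 4 libraries alone LHCB1.1 was the 1 gene that passed.

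LHCB1.1 had the largest decrease. It stood at 310 and 850 CPM in Col-0, 504 in ELF3-ox and 314 in ELF4-ox at 27 °C, against 5293 CPM in Col-0, 9401 in ELF3-ox and 8886 in ELF4-ox at 22 °C. Every 27 °C library lay far under every 22 °C library, with Col-0 replicate 2 the highest of the warm ones. The level at 22 °C was 16.2 times that at 27 °C (log2 change -4.02 ± 0.43 SE, adjusted p = 0.0196), and the decrease also passed within the pairs that share a title number (adjusted p = 0.0131). LHCB1.1 lies in a family of near-identical genes, so reads may be split among copies. LHCB1.2 had 2126, 4293, 3014 and 2620 CPM at 27 °C, against 4278, 8474 and 5990 CPM at 22 °C, with a log2 change of -0.99 ± 0.32 (adjusted p = 0.215). LHCB1.1, LHCB1.2 and LHCB1.3 summed to 9066 ± 3214 CPM at 27 °C (SD, n = 4) and 23771 ± 6211 CPM at 22 °C (SD, n = 3), and the warm sums, 5620 to 13120 CPM, did not overlap with the 22 °C sums, 17185 to 29524 CPM.

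The wider list of light harvesting and Rubisco genes holds chlorophyll-binding antenna proteins and the small subunit of the carbon-fixing enzyme. Of its 21 members, all tested, only LHCB1.1 passed, and 20 of 21 had negative fitted changes. The median was -0.59, against 0.00 over all tested genes. By genotype the median was -0.34 in Col-0, -0.81 in ELF3-ox and -0.70 in ELF4-ox. LHCB1.5 had 2562, 3423, 2500 and 1636 CPM at 27 °C, against 4733, 6247 and 5035 CPM at 22 °C, and LHCB3 had 272, 511, 413 and 446 CPM at 27 °C, against 754, 1061 and 635 CPM at 22 °C (adjusted p = 0.113 and 0.175). Both genes had every 27 °C library below every 22 °C library, as did 7.64% of all tested loci, and neither gene passed. The member with a positive value was RBCS2B (0.26 ± 0.23, adjusted p = 0.658). Outside the list, PSI-P, a thylakoid protein also named CURT1B that bends membranes, fell to 336 ± 105 CPM at 27 °C, against 941 ± 75.1 CPM at 22 °C (SD, n = 4 and 3). GLDP1, the P protein of photorespiratory glycine decarboxylase, fell to 245 ± 69.6 CPM at 27 °C, against 656 ± 89.9 CPM at 22 °C (adjusted p = 0.0414 for PSI-P and 0.0486 for GLDP1 by edgeR).

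**Figure D1:**
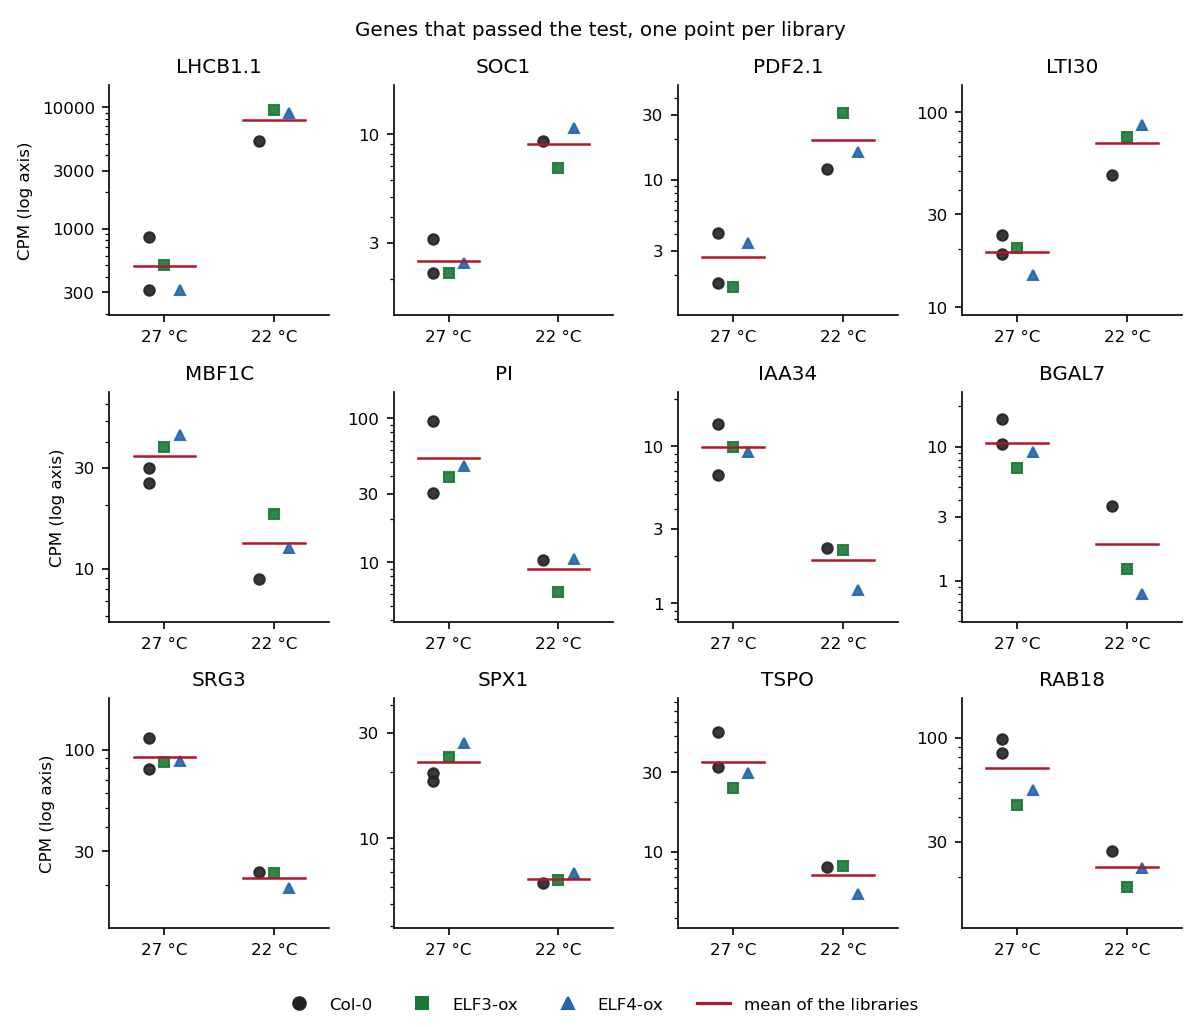
Levels of 12 genes that passed the test, in CPM on log axes, with 27 °C left of 22 °C in each panel; each point is 1 library, its shape and colour give the genotype, and the red line is the mean of the libraries. The 27 °C and 22 °C points do not overlap in any of these panels.

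The 2 flowering genes that passed moved in opposite directions. SOC1, a MADS-box gene that brings floral inputs together, had 3.13 and 2.16 CPM in Col-0, 2.15 in ELF3-ox and 2.41 in ELF4-ox at 27 °C, against 9.23 CPM in Col-0, 6.84 in ELF3-ox and 10.7 in ELF4-ox at 22 °C. All 4 warm libraries were low and close to each other, with a log2 change of -1.89 ± 0.26 (adjusted p = 0.0298). PI, the MADS-box gene that specifies petals and stamens, had 95.5 and 30.1 CPM in Col-0, 39.1 in ELF3-ox and 46.7 in ELF4-ox at 27 °C. At 22 °C, PI had 10.4 CPM in Col-0, 6.19 in ELF3-ox and 10.5 in ELF4-ox. The groups were separate, Col-0 replicate 1 being highest, and the log2 change was 2.47 ± 0.38 (adjusted p = 0.038). The floral meristem genes AP1 and FUL had 0 reads in all 7 libraries, and the florigen gene FT had at most 2 reads in a library. Of 19 genes on the flowering list 13 were tested, with a median change of 0.08. CO, the photoperiod regulator of FT, and FLM, a repressor that responds to temperature, did not pass (-1.06 ± 0.34, adjusted p = 0.214, and -0.59 ± 0.23, adjusted p = 0.29).

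Further called genes that rose were IAA34, BGAL7, RTFL21 and EXPA2. IAA34, of the Aux/IAA family of auxin signalling repressors, had 13.9 and 6.63 CPM in Col-0, 9.90 in ELF3-ox and 9.27 in ELF4-ox at 27 °C, against 2.25 CPM in Col-0, 2.18 in ELF3-ox and 1.22 in ELF4-ox at 22 °C. The warm libraries were all above the 22 °C ones (log2 change 2.38 ± 0.34, adjusted p = 0.031). BGAL7, a beta-galactosidase, had 16.0 and 10.4 CPM in Col-0, 6.99 in ELF3-ox and 9.06 in ELF4-ox at 27 °C, against 3.62 CPM in Col-0, 1.22 in ELF3-ox and 0.792 in ELF4-ox at 22 °C (2.49 ± 0.35, adjusted p = 0.0298). Col-0 was the highest genotype at both temperatures. RTFL21, a small peptide of the ROTUNDIFOLIA-like family, rose to 25.9 ± 4.43 CPM at 27 °C, against 6.53 ± 1.70 CPM at 22 °C (SD, n = 4 and 3; adjusted p = 0.0196 by edgeR). EXPA2 had 3.31, 1.81, 12.4 and 3.47 CPM at 27 °C, against 0.374, 2.18 and 1.01 CPM at 22 °C, where Col-0 replicate 2 at 27 °C lay under ELF3-ox at 22 °C.

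The list of PIF and auxin growth genes had 0 members past the threshold among 19 tested of 23, where 0.296% of all tested loci passed. Of the 19, 16 had positive values. At an unadjusted p under 0.05, 4 members were higher and 0 lower, against 7.18% and 7.27% of all tested loci. The list's median change was 0.48, and by genotype 0.79 in Col-0, 0.22 in ELF3-ox and 0.25 in ELF4-ox. EXPA8, a cell wall expansin, came nearest, with 33.1 and 45.5 CPM in Col-0, 21.2 in ELF3-ox and 19.7 in ELF4-ox at 27 °C, against 14.5 CPM in Col-0, 12.9 in ELF3-ox and 6.34 in ELF4-ox at 22 °C (1.28 ± 0.25, adjusted p = 0.0801). Its groups did not overlap, and 8.01% of all tested loci had every 27 °C library above every 22 °C library. SAUR19 and SAUR22, members of a family of auxin-induced growth genes with close copies, had changes of 1.15 ± 0.32 and 1.17 ± 0.35 (adjusted p = 0.169 and 0.185).

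**Figure D2:**
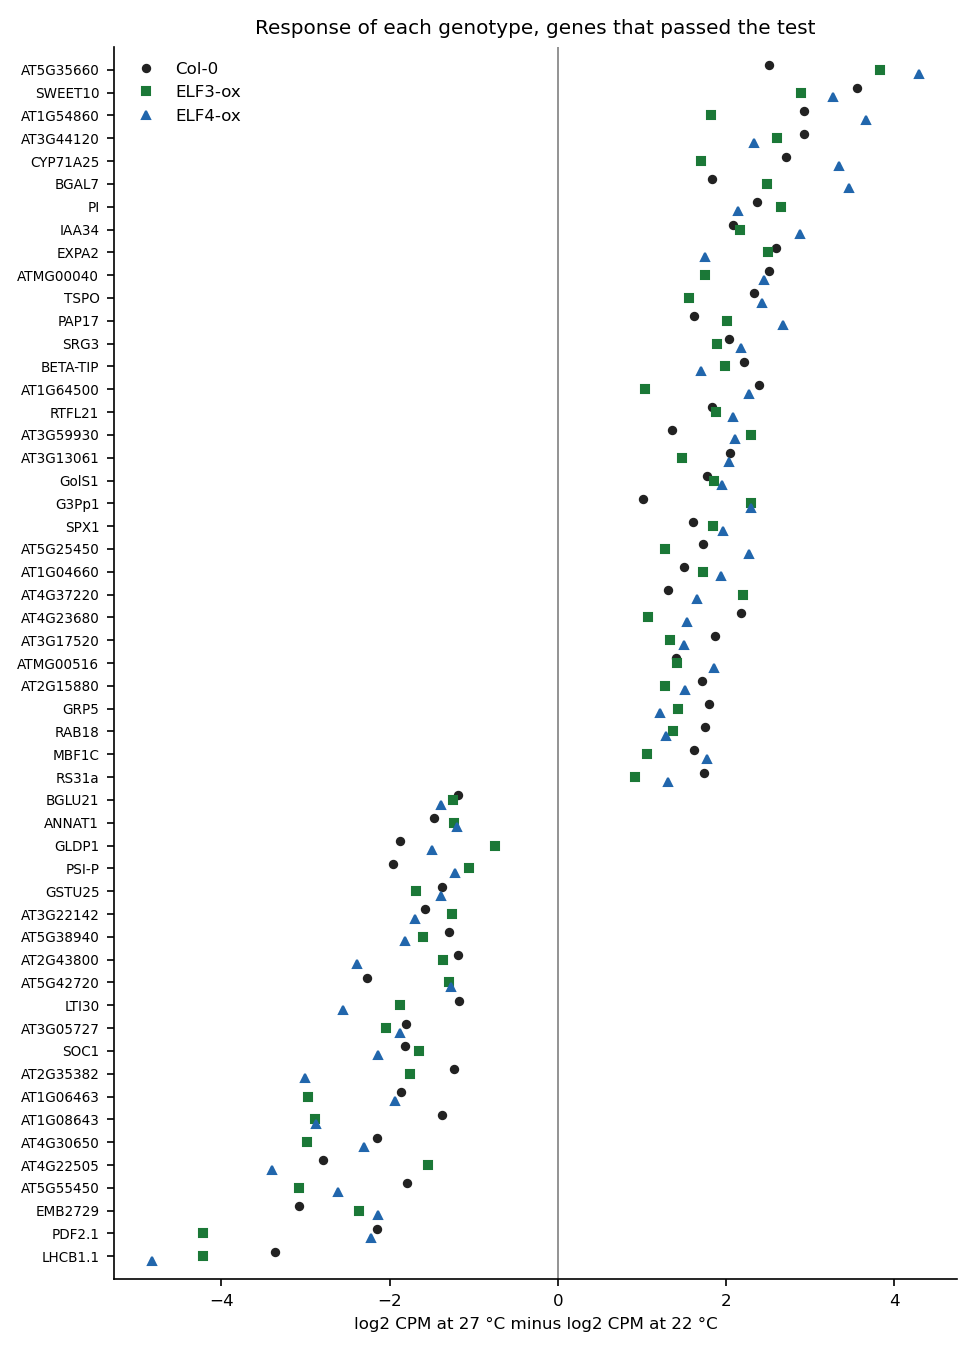
Difference in log2 CPM, 27 °C minus 22 °C, of all 53 genes that passed, 1 row a gene, ordered by the fitted change; Col-0 is the mean of 2 libraries at 27 °C, ELF3-ox and ELF4-ox have 1 each. Each genotype lies on the same side of 0 in every row, and LHCB1.1 is the lowest. The genes were chosen from these same libraries.

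None of the evening complex genes or their listed targets passed. The target list, which holds ELF4 and LUX but not ELF3, had 0 calls among 8 tested of 10 and a median change of 0.41. Only 0.296% of all tested loci passed, so 0 calls in so short a list says little about its members. PRR9 and LNK1 were under the filter, with at most 1 and 45 reads in a library. ELF3 had 21.9 and 16.7 CPM in Col-0, 35.1 in ELF3-ox and 31.8 in ELF4-ox at 27 °C, against 29.8 CPM in Col-0, 37.3 in ELF3-ox and 20.1 in ELF4-ox at 22 °C. ELF4 had 66.1 and 57.9 CPM in Col-0, 83.1 in ELF3-ox and 110 in ELF4-ox at 27 °C, against 67.1 CPM in Col-0, 62.8 in ELF3-ox and 95.4 in ELF4-ox at 22 °C. The groups overlapped for both genes, with changes of -0.09 ± 0.26 for ELF3 and 0.14 ± 0.20 for ELF4 (adjusted p = 0.907 and 0.801). At each temperature ELF3-ox had the highest level of ELF3 and ELF4-ox the highest of ELF4, and neither difference from Col-0 was tested. Whether tags of the transgenes count at these loci is not given in the labels.

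LUX had the smallest p of the group. It stood at 59.5 and 63.4 CPM in Col-0, 32.7 in ELF3-ox and 22.5 in ELF4-ox at 27 °C, against 26.1 CPM in Col-0, 17.3 in ELF3-ox and 15.6 in ELF4-ox at 22 °C. Each genotype was higher at 27 °C, but the warm ELF4-ox library lay under the 22 °C Col-0 library. The change was 0.93 ± 0.22 (adjusted p = 0.117). PIF5, a growth-promoting relative of PIF4, and TOC1, an evening clock repressor, had changes of 0.58 ± 0.22 and 0.55 ± 0.28 (adjusted p = 0.269 and 0.396). PRR7, a daytime clock repressor, had 4.35, 6.53, 3.22 and 1.06 CPM at 27 °C, against 8.61, 5.93 and 3.82 CPM at 22 °C (-1.01 ± 0.31, adjusted p = 0.191). BOA, a close relative of LUX, had a change of 0.33 ± 0.23 (adjusted p = 0.564).

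PIF4 differed between genotypes in its values. It had 11.1 and 21.8 CPM in Col-0, 7.60 in ELF3-ox and 5.02 in ELF4-ox at 27 °C, against 4.49 CPM in Col-0, 8.77 in ELF3-ox and 6.27 in ELF4-ox at 22 °C. In Col-0 both warm libraries were above the 22 °C one, and in both overexpressors the warm library was below its 22 °C partner. The log2 differences were 1.79 in Col-0, -0.21 in ELF3-ox and -0.32 in ELF4-ox, and the fitted common change was 0.49 ± 0.45 (adjusted p = 0.667). GI, an evening clock gene that also promotes flowering, had 1.39 and 2.51 CPM in Col-0, 0.691 in ELF3-ox and 0.283 in ELF4-ox at 27 °C, against 0.749 CPM in Col-0, 3.80 in ELF3-ox and 0.360 in ELF4-ox at 22 °C. Its log2 differences were 1.28, -2.40 and -0.31. A test of the Col-0 response against that of both overexpressors, added after the values were seen, gave a log2 difference of 2.16 ± 0.61 for PIF4 and 3.25 ± 1.05 for GI (adjusted p = 0.902 for both). Across all 17934 loci that test called 0 genes (5.03%, or 902 loci, had an unadjusted p under 0.05). DESeq2 called 11, none of them PIF4 or GI.

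**Figure D3:**
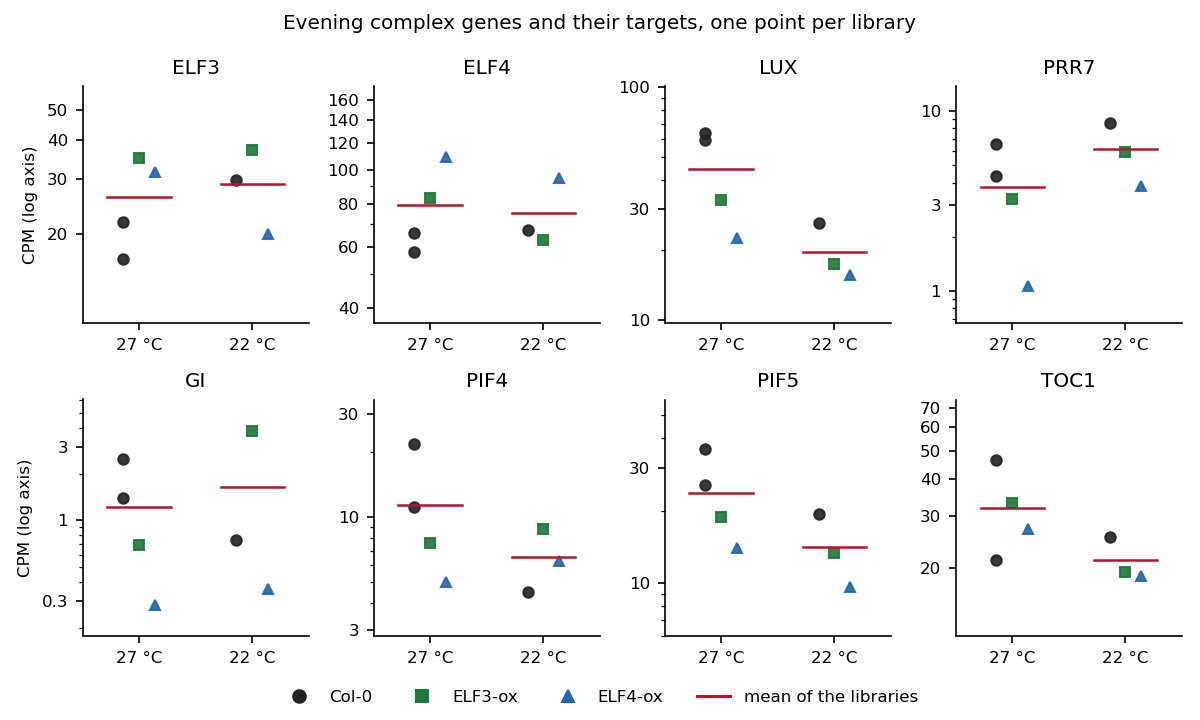
Levels of ELF3, ELF4, LUX and 5 target genes of the evening complex in CPM on log axes, with 27 °C left of 22 °C; each point is 1 library, shapes and colours give the genotype, and red lines are means of the libraries. For PIF4 the Col-0 points are higher at 27 °C and the points of the overexpressors are not, and no gene shown here passed the test.

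Other clock genes did not pass either, with 0 of 9 tested morning genes and 0 of 11 evening genes, where 0.296% of all tested loci passed. RVE2 and RVE4, MYB-like factors of the morning loop, had changes of 0.91 ± 0.21 and 0.83 ± 0.23 (adjusted p = 0.119 and 0.162). For both, every 27 °C library lay above every 22 °C library, as it did for 8.01% of all tested loci. LHY, a core morning repressor, had 1.57, 0.703, 2.92 and 0.779 CPM at 27 °C, against 2.12, 3.80 and 1.80 CPM at 22 °C (adjusted p = 0.345). CCA1, its partner, was under the filter with at most 14 reads in a library. Among evening genes, the blue light receptor LKP2 had a change of 0.80 ± 0.25 and its relative ZTL one of -0.49 ± 0.24 (adjusted p = 0.207 and 0.397).

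**Figure D4:**
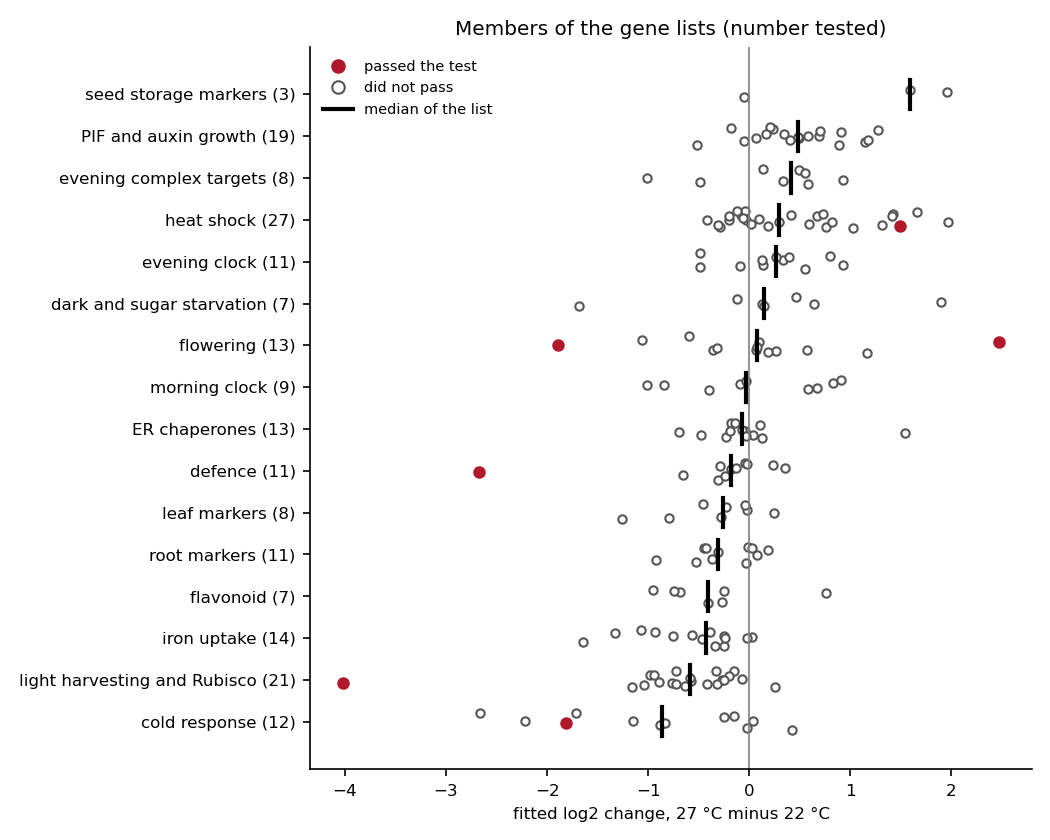
Fitted log2 changes, 27 °C minus 22 °C, of the tested members of 16 gene lists, 1 point a gene, with the number tested in brackets; filled red points passed the test, open points did not, and black bars are list medians. Medians run between -0.86 for the cold response and 1.59 for the 3 seed storage markers, and 6 points are filled.

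Heat and cold genes were described from 2 further lists. MBF1C, a transcriptional coactivator induced by heat, was the only heat shock gene of 27 tested that passed. It had 25.4 and 30.0 CPM in Col-0, 37.6 in ELF3-ox and 43.0 in ELF4-ox at 27 °C, against 8.98 CPM in Col-0, 18.1 in ELF3-ox and 12.5 in ELF4-ox at 22 °C. All warm libraries were higher (1.49 ± 0.23, adjusted p = 0.035). The list's median was 0.30, and 9 members were higher and 0 lower at an unadjusted p under 0.05. Over all tested loci, 7.18% were higher and 7.27% lower at that threshold. The chaperone genes HSP70-4, HSP90-1 and HSP70-2 had changes of 1.31 ± 0.27, 1.66 ± 0.36 and 1.02 ± 0.22, with adjusted p of 0.0847, 0.0948 and 0.0989; the HSP70 genes have close copies. The small heat shock gene HSP17.4 had 20.7 CPM in ELF3-ox at 22 °C, above both Col-0 libraries at 27 °C. Chaperones of the endoplasmic reticulum had 0 calls of 13 tested, where 0.296% of all tested loci passed, and a median of -0.07.

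The cold list had 1 call, downward, of 12 tested. LTI30, a dehydrin, had 18.8 and 23.4 CPM in Col-0, 20.2 in ELF3-ox and 14.6 in ELF4-ox at 27 °C, against 47.5 CPM in Col-0, 74.3 in ELF3-ox and 85.7 in ELF4-ox at 22 °C. The groups were separate and the change was -1.81 ± 0.28 (adjusted p = 0.035). The list's median was -0.86, with 0 members higher and 6 lower at an unadjusted p under 0.05, against 7.18% and 7.27% of all tested loci. RD29A, which also answers to drought, and COR413-PM1, a membrane protein, came close, with changes of -1.71 ± 0.30 and -1.15 ± 0.21 (adjusted p = 0.0536 and 0.0627). COR15B, a chloroplast protectant, had 1.91, 12.7, 1.23 and 1.70 CPM at 27 °C, against 17.8, 30.0 and 13.04 CPM at 22 °C (-2.66 ± 0.69, adjusted p = 0.145). Col-0 replicate 2 was the highest warm library for it.

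The called genes that rose included SRG3, also named GDPD1, an enzyme that releases glycerol phosphate from membrane lipid products. It had 115 and 79.8 CPM in Col-0, 85.9 in ELF3-ox and 87.3 in ELF4-ox at 27 °C, against 23.3 CPM in Col-0, 23.2 in ELF3-ox and 19.3 in ELF4-ox at 22 °C. Both groups were tight and far apart (2.04 ± 0.22, adjusted p = 0.0196). PAP17, an acid phosphatase, had 8.88, 4.87, 6.45 and 10.3 CPM at 27 °C, against 2.12, 1.57 and 1.58 CPM at 22 °C (2.11 ± 0.34, adjusted p = 0.0414). SPX1, a sensor that restrains the phosphate starvation response, had 19.8, 18.18, 23.3 and 27.0 CPM at 27 °C, against 6.24, 6.44 and 6.92 CPM at 22 °C (1.79 ± 0.21, adjusted p = 0.0196). Each of the 3 genes had separate groups. G3Pp1, a glycerol-3-phosphate permease, had a change of 1.82 ± 0.30 (adjusted p = 0.0414).

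TSPO, a membrane protein induced by abscisic acid, had 52.4 and 32.2 CPM in Col-0, 24.1 in ELF3-ox and 29.9 in ELF4-ox at 27 °C, against 8.11 CPM in Col-0, 8.16 in ELF3-ox and 5.55 in ELF4-ox at 22 °C. The warm libraries were all higher (2.13 ± 0.28, adjusted p = 0.0289). RAB18, a dehydrin, had 84.1, 98.5, 45.7 and 54.3 CPM at 27 °C, against 27.0, 17.7 and 22.2 CPM at 22 °C (1.497 ± 0.211, adjusted p = 0.0298). BETA-TIP, a vacuolar aquaporin known from seeds, had 12.5, 21.3, 14.4 and 6.65 CPM at 27 °C, against 3.49, 3.60 and 2.02 CPM at 22 °C (2.03 ± 0.28, adjusted p = 0.0298). The groups were separate for both genes. These genes are also expressed in seeds, and the sum of the seed markers given above was higher at 27 °C in Col-0 and ELF4-ox and lower in ELF3-ox; its part in these results was not tested. AT5G35660 had the largest increase, with 14.1, 54.7, 23.57 and 10.5 CPM at 27 °C, against 4.87, 1.62 and 0.504 CPM at 22 °C (3.498 ± 0.502, adjusted p = 0.0307). Col-0 27 °C replicate 2 was its highest library too. AT1G64500 (1.94 ± 0.29) and the mitochondrial open reading frame ATMG00040 (2.24 ± 0.28) complete the 10 highest changes of calls whose mean level reached 5 CPM.

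The decreases held 3 small nucleolar RNA (snoRNA) genes, guides for the chemical modification of ribosomal and other RNA, among the 10 lowest changes of calls whose mean level reached 5 CPM. AT1G08643 had 24.9 and 46.5 CPM in Col-0, 14.1 in ELF3-ox and 9.20 in ELF4-ox at 27 °C, against 88.7 CPM in Col-0, 105 in ELF3-ox and 67.5 in ELF4-ox at 22 °C (-2.28 ± 0.37, adjusted p = 0.0414). AT1G06463 had 5.74, 6.83, 3.15 and 3.61 CPM at 27 °C, against 23.0, 25.0 and 13.9 CPM at 22 °C (-2.21 ± 0.27, adjusted p = 0.0196). AT2G35382 had a change of -1.91 ± 0.32 (adjusted p = 0.046). All 3 had separate groups. Of 104 snoRNA genes tested, 0 were called higher and 3 lower, where 0.117% of all tested loci were called lower; 66 had positive and 38 negative values, with a median of 0.21. Such RNAs mostly lack a poly(A) tail, and tags from an overlapping transcript cannot be told apart from theirs here.

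PDF2.1, a defensin, had 1.74, 4.02, 1.61 and 3.40 CPM at 27 °C, against 11.9, 30.6 and 15.9 CPM at 22 °C (-2.67 ± 0.43, adjusted p = 0.0414). It was the only call among 11 tested defence genes, whose median was -0.18. EMB2729, which resembles starch branching enzymes, had 1.04, 2.16, 2.303 and 2.48 CPM at 27 °C, against 12.98, 12.02 and 11.02 CPM at 22 °C. These levels were low but tight in each group (-2.51 ± 0.28, adjusted p = 0.0196). AT4G22505, AT4G30650 and AT3G05727 fell by 2.40, 2.34 and 1.83 on the log2 scale.

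Several other lists had 0 calls, where 0.296% of all tested loci passed. Of the flavonoid pigment genes, F3H and FLS1 had changes of -0.95 ± 0.23 and -0.75 ± 0.23, and F3'H one of 0.76 ± 0.27 (adjusted p = 0.122, 0.2 and 0.25), with a median of -0.41 over 7 tested. Iron uptake genes had 13 of 14 negative values and a median of -0.43; PYE, a regulator of iron balance, and NAS4, which makes the metal chelator nicotianamine, had changes of -0.93 ± 0.20 and -1.64 ± 0.38 (adjusted p = 0.104 and 0.115). DIN2 and DIN11, induced in the dark, had opposite signs (1.90 ± 0.51 and -1.69 ± 0.33, adjusted p = 0.16 and 0.0805). Among leaf markers TCP4, a regulator of leaf growth, had 11.5, 8.33, 10.1 and 8.49 CPM at 27 °C, against 22.5, 20.9 and 24.6 CPM at 22 °C (-1.25 ± 0.22, adjusted p = 0.0536). Of the gibberellin genes 1 of 5 was tested, GA2OX6, with a change of -0.49 ± 0.41.

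Single genotypes, with 1 or 2 libraries at each temperature, were not tested on their own. By size alone, 809 loci were at least 2-fold higher and 1263 at least 2-fold lower at 27 °C in Col-0, 858 and 688 in ELF3-ox, and 1015 and 1193 in ELF4-ox. In all 3 genotypes at once, 90 loci were 2-fold higher (0.502%) and 82 were 2-fold lower (0.457%).

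The 53 genes were next followed in the lines with a mutant ELF3 or ELF4 allele, whose libraries the calls had not used. At 27 °C all of these mutant libraries have title number 177. At 22 °C, elf3-1 has 181, elf4-2 and elf3-1 X ELF4-ox have 178, and elf4-2 X ELF3-ox has 177. Except in elf4-2 X ELF3-ox, a difference between title numbers cannot be told apart from warmth within these lines, as in ELF4-ox (177 against 178). A fit of all 15 libraries, with 18903 loci tested, estimated the response of each class of lines. In the mutant lines 1602 loci passed (8.47%), 796 higher (4.21%) and 806 lower (4.26%). In the intact genotypes 377 passed in that fit (1.99%), 201 higher (1.06%) and 176 lower (0.931%). Of the 53 genes, 45 passed in the intact genotypes in that fit; the other 8 were AT5G35660, AT1G54860, AT3G17520, RAB18, TSPO, BETA-TIP, EXPA2 and AT3G05727, with adjusted p between 0.0521 and 0.165. In the mutant lines 50 of the 53 had the same sign, against 74.5% of all 18903 loci with 1 sign in both classes, and 41 passed in the same direction. PI rose by 2.49 in the intact genotypes and by 2.50 in the mutant lines on the log2 scale, and MBF1C by 1.51 and 1.72. SRG3 rose by 2.06 in the intact genotypes and by 1.65 in the mutant lines. The 3 genes of opposite sign were AT1G54860, AT1G04660 and RAB18, with log2 changes of -1.01, -0.22 and -0.08 in the mutant lines. All 3 were named because of this sign. The class estimates pool lines that differed. AT1G54860 was at -1.33 in elf3-1, -2.98 in elf3-1 X ELF4-ox and -2.13 in elf4-2 X ELF3-ox, but at 5.14 in elf4-2. AT5G35660, counted among the 50, was at -2.90 in elf3-1 and -1.24 in elf3-1 X ELF4-ox. In elf4-2 and elf4-2 X ELF3-ox it was at 6.91 and 4.05. The seed markers CRA1, OLEO1 and OLEO2 also differed among these lines. They were at 4.09, 2.00 and 3.62 in elf4-2, and all 3 were negative in each other mutant line, at -5.99 to -0.65. Their part in these changes was not tested.

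A test of the difference between both responses called 0 of the 18903 loci (723 at an unadjusted p under 0.05, 3.82%), with a smallest adjusted p of 0.676. LHCB1.1 was among the 5 loci of smallest p with a negative difference: its change was -4.00 ± 0.38 in the intact genotypes and -1.44 ± 0.32 in the mutant lines, a difference of -2.56 ± 0.49. In the mutant lines it had 465 to 2717 CPM at 27 °C and 1324 to 5799 CPM at 22 °C. The single responses were -3.33 in Col-0, -4.21 in ELF3-ox and -4.81 in ELF4-ox, against -1.33 in elf3-1, -1.83 in elf4-2, -1.09 in elf3-1 X ELF4-ox and -1.51 in elf4-2 X ELF3-ox. All 3 intact values were lower than all 4 mutant values. The difference for LHCB1.1 passed in 4 of 12 settings, with adjusted p between 7.34e-05 and 0.994 over them, and without Col-0 27 °C replicate 2 it was -2.93 (adjusted p = 0.00308). COR414-TM1, a cold-regulated chloroplast membrane protein, had changes of -0.81 ± 0.18 in the intact genotypes and 0.48 ± 0.16 in the mutant lines (difference -1.29 ± 0.24, adjusted p = 0.676), and DESeq2 called it. The other negative differences of smallest p were those of the iron store FER1 (-1.196 ± 0.248), the peroxidase PRXCB (-0.91 ± 0.20) and AT3G20340 (-0.90 ± 0.22).

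Among positive differences, the smallest p was that of FRO2. FRO2, the ferric reductase of iron uptake, had changes of -0.69 ± 0.44 in the intact genotypes and -3.99 ± 0.41 in the mutant lines (difference 3.30 ± 0.61, adjusted p = 0.676). The intact genotypes were not alike: FRO2 was at -0.10 in Col-0 and -0.40 in ELF3-ox, but at -2.54 in ELF4-ox. In the mutant lines FRO2 was at -5.05 to -2.71. Its 22 °C level was 4.03 to 15.3 CPM in the intact genotypes and 27.5 to 99.3 CPM in the mutant lines. At 27 °C it was 0.664 to 11.5 CPM in the intact genotypes and 0.797 to 8.98 CPM in the mutant lines, so the classes overlapped when warm and were separate at 22 °C. CYP82C4, which makes an iron-chelating coumarin, had a difference of 5.72 ± 1.07 (adjusted p = 0.676). It was at 0.72 in Col-0, -1.18 in ELF3-ox and -3.72 in ELF4-ox, against -8.17 to -4.68 in the mutant lines. Without a filter on low counts FRO2 and CYP82C4 both passed (adjusted p = 0.00989 each). AFP2, a partner of an abscisic acid factor, CYP79B3, of indole glucosinolate synthesis, and AT4G28740 had differences of 1.37 ± 0.26, 1.42 ± 0.31 and 1.201 ± 0.268. LUX had changes of 0.94 ± 0.17 in the intact genotypes (adjusted p = 0.0200) and 0.16 ± 0.14 in the mutant lines (adjusted p = 0.513) in this fit. The difference of 0.78 ± 0.22 did not pass (adjusted p = 0.9998). In the mutant lines LUX was at 96.0 to 112 CPM at 22 °C and 107 to 124 CPM at 27 °C. All intact libraries, at both temperatures, were lower, at 16.1 to 68.0 CPM.

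**Figure D5:**
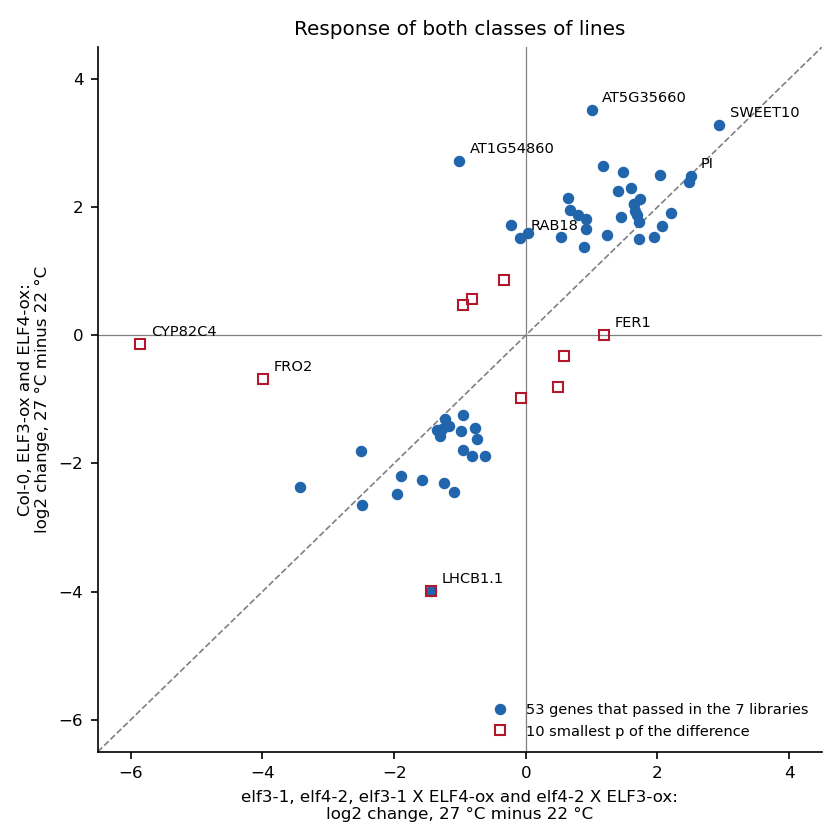
Fitted log2 change, 27 °C minus 22 °C, in Col-0, ELF3-ox and ELF4-ox (vertical axis) against that in elf3-1, elf3-1 X ELF4-ox, elf4-2 and elf4-2 X ELF3-ox (horizontal axis), 1 point a gene; filled points are the 53 genes that passed in the 7 libraries, open squares the 10 named for the smallest p of the difference, and the dashed line marks equal responses. Most filled points lie in the quadrants where both responses have the same sign, LHCB1.1 lies at -4.00 against -1.44, and FRO2 and CYP82C4 lie far to the left.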

How the data were processed

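RNA was measured by QuantSeq 3' FWD sequencing on an Illumina instrument, per the labels' protocols. Alignment used STAR and the TAIR10 build, per the submitters' processing notes; the sources used here give neither versions nor the counting tool. The deposited values are raw counts of reads per gene locus, 32833 loci in each library, of which 99.1% matched a TAIR10.1 gene table used for symbols and gene types. Closing rows that name no gene stayed out of library sizes: 4.64 to 7.98% of reads did not align uniquely and 2.46 to 3.40% fell on no gene. Counts were tested in R 4.3.3 with edgeR 4.0.16 (TMM factors, a minimum of 1 CPM in 3 libraries, genotype and temperature terms, 3 residual degrees of freedom), and with DESeq2 1.42.0 as an alternative. The scripts were tested on simulated data. Differences within a genotype are of log2 CPM with a prior count of 0.5. The difference between classes of lines used 15 libraries, with line and class-specific temperature terms. Alternatives were other scalings, filters, terms for the title number, shared title numbers only, a spread from all 38 RNA libraries and leaving out each library.

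Named were ELF3, ELF4, LUX and the evening complex targets; the 10 highest and 10 lowest changes among genes that passed with a mean of at least 5 CPM and the same sign in all genotypes; up to 4 members of smallest p per list; and the 5 smallest p per direction of the difference between classes. Other genes were chosen after their values were seen. The members, lists and tests were chosen with earlier results of these data known. Intervals cover the spread between libraries, and reads without molecular identifiers are not independent molecules.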

Additional observations from a re-analysis of the deposited data

Results flagged for a closer look

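Of 81 named genes, 3 had a 27 °C library that stood apart from the other 3 by a share of the range of all 4 above Dixon's 95% critical value, which chance passes in about 1 group in 20. COR15B was at 12.7 CPM in Col-0 replicate 2, against 1.23 to 1.91 CPM in the other warm libraries, a gap of 0.940 of the range. COR413-PM1 was at 150 CPM in Col-0 replicate 1, against 209 to 219 CPM in the others, a gap of 0.861. PDF2.3, a defensin, was at 109 CPM in ELF3-ox, against 143 to 150 CPM in the others, a gap of 0.832. COR15B and COR413-PM1 had every 27 °C library below every 22 °C library even so, as did 7.64% of all tested loci. Neither gene nor PDF2.3 passed the test.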

How the results depend on the processing

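RLE and upper-quartile scaling, a 5 CPM filter, no genotype term and an added 1.5-fold threshold kept the count of called genes within 1.5 times 53. It was 430 with DESeq2, 401 without a filter on low counts and 140 with a spread from all 38 RNA libraries. It was 13 with a term for the title number and 1 in pairs that share a title number. The calls were not always the same genes. Without a genotype term 38 of the 53 were among the 76 calls, and with the 5 CPM filter 49 among 64. With the 38-library spread 28 of the 53 were among the 140 calls, and with the title number term 6 among the 13. The cause was not tested. The title number term leaves 1 residual degree of freedom, against 3 without it, and the pairs hold only 4 libraries. Leaving out single libraries gave 0 to 277. Members of the gene lists that passed numbered 6, but 25 with DESeq2, 25 without a filter, 1 in pairs that share a title number and 0 to 24 without single libraries. The difference between classes of lines gave 0 calls, but 1 with a title number term, 2 with DESeq2, 3 without a filter and 0 to 1 without single libraries of the intact genotypes; the planned fit without the library of title number 184 is that without Col-0 27 °C replicate 2. The difference between Col-0 and the overexpressors gave 11 calls with DESeq2. Loci past 2-fold in all 3 genotypes numbered 185 higher and 246 lower without a filter, and 54 and 42 with a 5 CPM filter. Reversed signs occurred only in genes that had not passed. Without single libraries, ELF3 ranged between -0.40 and 0.28, GI between -1.80 and 0.87, PIF4 between -0.26 and 0.90, GA2OX6 between -0.80 and 0.072 and OLEO1 between -0.77 and 1.1002. GA2OX6 was at 0.156 with a title number term and 0.159 in pairs that share a number, and OLEO1 was at 0.060 with DESeq2. The cause was not tested. The 5 CPM filter left no member of the gibberellin list. The labels number no replicates across temperatures. Among the 7 libraries, title numbers pair the temperatures only for Col-0 replicate 1 (181) and ELF3-ox (177), which are the pairs fitted above. Depth limits genes near 1 CPM, among them GI, LHY and the clock genes under the filter.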

Other observations

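Among 22 genes of the phosphate starvation response, a list written after the values were seen, 16 were tested, and 4 passed upward and 0 downward: SRG3, PAP17, SPX1 and G3Pp1. The list's median change was 0.29, against 0.00 over all tested genes, and the phosphate transporter PHT1;1 (0.11), the regulator PHR1 (-0.34) and the noncoding RNA AT4 (0.06) had values near 0. SPX2 had 9.57, 15.4, 9.52 and 11.5 CPM at 27 °C, against 6.49, 5.32 and 5.04 CPM at 22 °C (0.99 ± 0.25, adjusted p = 0.136 by edgeR). SPX3 and IPS1, which are strongly induced when phosphate is short, had at most 3 and 22 reads in a library.

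Among 16 abscisic acid and dehydration genes, also listed after the values were seen, 15 were tested, and 3 passed upward and 0 downward: TSPO, RAB18 and GolS1, which makes galactinol. The median was 0.69 in the fit of the 7 libraries and 0.15 in the mutant lines of the 15-library fit. The phosphatase gene HAI1 had 7.14, 6.03, 3.68 and 5.38 CPM at 27 °C, against 2.25, 1.57 and 1.58 CPM at 22 °C (1.505 ± 0.279, adjusted p = 0.0631). Every 27 °C library of HAI1 lay above every 22 °C library, as it did for 8.01% of all tested loci. RAB18 and TSPO varied widely among the mutant lines, with log2 differences, 27 °C minus 22 °C, of 2.74 and 3.22 in elf4-2 and of -1.43 and -1.17 in elf3-1 X ELF4-ox. The low-level genes SWEET10, a sugar exporter, and CYP71A25, a cytochrome P450, also passed: SWEET10 averaged 3.51 ± 1.298 CPM at 27 °C and 0.331 ± 0.110 CPM at 22 °C, and CYP71A25 averaged 7.56 ± 1.44 CPM at 27 °C and 1.27 ± 0.640 CPM at 22 °C (SD, n = 4 and 3).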
